A study of Mus musculus with 6 samples.

Results

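Open chromatin in activated mouse CD8+ T cells is described here at 763 dense clusters, stretches of the genome that were crowded with regions open in every library. Peaks of the 6 libraries on chromosomes 1 to 19 and X were merged wherever they shared at least 1 bp, which gave 134151 regions, and the 56599 regions with a peak in all 6 libraries were kept as constitutive. Constitutive regions separated by 12.5 kb or less were joined into 21399 stitched clusters, and those with 10 or more regions are the dense clusters. They are 3.57% of the stitched clusters and hold 11347 constitutive regions, 20.05% of all constitutive regions. Each was assigned to the protein-coding genes that it overlaps in RefSeq's table of GRCm38.p6, the primary assembly of mm10. The members were chosen by the peak calls of all libraries and their positions, so number, size and place of the clusters are given as a description.

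The assay was ATAC-seq, which reads accessibility from where a transposase can cut and tag DNA. The T cells shared a transwell for 48 h with tumour cells of a PD-1-resistant lung adenocarcinoma line. In 3 libraries the tumour cells carried a short hairpin RNA against Fabp7, a fatty acid binding protein (Res-shFabp7), and in the other 3 they were the control (Res-ctrl). All T cells came from mouse spleen by removal of other cells, were activated with antibodies against CD3 (5 µg/mL) and CD28 (1 µg/mL) and sat in the lower chamber, behind the membrane from the tumour cells, so that the hairpin was in the tumour cells and not in the T cells. The sources used here do not give the strain, age or sex of the mice, or whether Res-shFabp7 is 1 clone. The labels call the 3 libraries of each group biological replicates.

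Regulatory DNA that is free of nucleosomes lies mostly at gene starts and at enhancers, which can sit within a gene or far from it. Enhancers of genes that set a cell's identity often lie close together, and such stitched groups are known as stretch enhancers or, where they carry much coactivator or histone acetylation, as super-enhancers. In T cells, groups of this kind are known at genes of the T cell receptor, at lineage transcription factors and at cytokine receptors. Neither a coactivator nor a histone mark was measured here, so the clusters are described by accessibility alone.

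The gene starts of 4 genes with a known part in the CD8+ T cell lineage lay under a constitutive region inside a dense cluster, and the 250 bases before each start are printed to show the DNA at those starts. The open region covered all 250 bases at Runx3 and Lef1, but 140 at Cd8a and 99 at Tcf7, the bases next to the start. Runx3, at chr4:135120395-135120644 (plus strand), encodes a transcription factor of the CD8+ lineage. Tcf7, at chr11:52282596-52282845 (minus strand), and Lef1, at chr3:131112541-131112790 (plus strand), encode HMG-box factors of naive and memory T cells. Cd8a, at chr6:71373177-71373426 (plus strand), encodes a chain of the CD8 coreceptor. The sequences are RefSeq's, build GRCm38.p6, read 5′ to 3′ on the gene's strand, and capitals mark matches to the motifs listed after them.
Runx3: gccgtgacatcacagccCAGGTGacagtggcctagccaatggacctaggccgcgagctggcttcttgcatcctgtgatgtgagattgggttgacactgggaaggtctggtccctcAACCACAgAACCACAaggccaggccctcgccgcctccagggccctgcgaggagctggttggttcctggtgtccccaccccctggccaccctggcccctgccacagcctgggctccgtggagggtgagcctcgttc
Tcf7: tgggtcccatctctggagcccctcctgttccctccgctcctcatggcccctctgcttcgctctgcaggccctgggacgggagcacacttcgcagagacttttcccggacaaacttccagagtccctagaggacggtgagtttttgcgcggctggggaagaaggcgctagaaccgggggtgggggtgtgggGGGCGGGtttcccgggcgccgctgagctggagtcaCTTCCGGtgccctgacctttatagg
Lef1: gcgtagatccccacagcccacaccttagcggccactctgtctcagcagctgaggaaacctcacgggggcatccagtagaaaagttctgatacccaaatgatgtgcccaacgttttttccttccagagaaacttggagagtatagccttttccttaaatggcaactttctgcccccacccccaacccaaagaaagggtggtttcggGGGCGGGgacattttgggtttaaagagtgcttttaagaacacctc
Cd8a: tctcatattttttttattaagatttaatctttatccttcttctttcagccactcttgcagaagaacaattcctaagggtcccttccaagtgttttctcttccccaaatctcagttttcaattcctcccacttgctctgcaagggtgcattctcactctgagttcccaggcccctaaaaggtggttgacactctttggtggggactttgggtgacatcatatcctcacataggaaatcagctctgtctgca
The motifs searched on both strands were ETS (CCGGAAG), RUNX (TGTGGTT), AP-1 (TGANTCA), CRE (TGACGTCA), TCF/LEF (CTTTGAT), E-box (CAGGTG), GC box (GGGCGGG) and, by name alone, NF-kappaB and IRF. The Runx3 stretch held 3 matches, an E-box and 2 RUNX motifs, the Tcf7 stretch a GC box and an ETS motif, the Lef1 stretch a GC box, and the Cd8a stretch none of these letters. Over starts that lay under a constitutive region, the ETS motif stood before 14.7% of the 1093 inside dense clusters, before 16.8% of the 8907 elsewhere and before 9.07% of all 21044 listed starts. The GC box stood before 44.6%, 47.7% and 31.4% of the same starts, the E-box before 16.4%, 14.4% and 17.1%, and the RUNX motif before 4.03%, 2.78% and 3.84%. The shares of the other 5 motifs were between 0.732% and 4.57% inside dense clusters and between 0.375% and 6.17% over all starts. A match of letters is a description and not a bound site.

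The region over the Runx3 start spans chr4:135120046-135120729 and was the tallest of its cluster. Its pileup, the coverage at the summit as the authors' lists give it, was 348, 290 and 369 with Res-shFabp7, against 273, 260 and 405 with Res-ctrl. Over Tcf7 the start region had a pileup of 60, 51 and 36 with Res-shFabp7, against 30, 21 and 45 with Res-ctrl. Pileups are not scaled between libraries, so heights are given from here on as percentiles within a library over the 56599 constitutive regions, with 0 lowest and 100 highest. On that scale the Runx3 start region stood at 98.3, 97.4 and 98.5 with Res-shFabp7, against 97.9, 98.5 and 98.6 with Res-ctrl, while that of Tcf7 stood at 60.7, 57.6 and 40.9 with Res-shFabp7, against 47.7, 37.2 and 48.65 with Res-ctrl. The Lef1 start region stood at 83.4, 81.1 and 83.6 with Res-shFabp7, against 80.8, 78.5 and 82.0 with Res-ctrl. For Cd8a the values were 73.5, 71.3 and 69.1 with Res-shFabp7, against 67.0, 65.45 and 68.7 with Res-ctrl. The groups overlapped at Runx3, Tcf7 and Lef1, and the 3 Res-shFabp7 values of Cd8a lay above the 3 Res-ctrl values. Of all gene starts that lie within the span of a dense cluster, 1093 of 1413 (77.35%) were under a constitutive region, against 45.37% of the starts elsewhere. The rule chose spans crowded with constitutive regions, so a higher share inside follows in part from the rule, and these shares are a description.

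The lists were longer with Res-shFabp7, and coverage differed between libraries. The lists held 104556, 105776 and 100226 peaks on chromosomes 1 to 19 and X with Res-shFabp7, against 84826, 82140 and 96291 with Res-ctrl. The median pileup of constitutive regions inside dense clusters was 58, 54 and 56 with Res-shFabp7, against 41, 38 and 61 with Res-ctrl, so that the third Res-ctrl library resembled the Res-shFabp7 libraries in pileup. Read pairs per library are given only as a range, 35 to 75 M, so depth itself could not be compared. A shallower library yields fewer weak peaks.

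Most dense clusters were just above the minimum size, and a few were several times larger. The number of constitutive regions per cluster had a median of 13, with quartiles of 11 and 17 and a maximum of 71. There were 281 clusters with 15 or more regions, 111 with 20 or more and 22 with 30 or more. Their spans had a median of 53.05 kb, from 8.52 to 256.4 kb, and added up to 44.3 Mb. Along a cluster there were 2.57 regions per 10 kb at the median, from 1.46 to 11.7, and the regions themselves covered 9.805% of the span at the median. At the limit of the rule, 129 clusters held exactly 10 regions, with a median span of 39.6 kb and a median height at percentile 54.7, and 208 stitched clusters held exactly 9, with 35.4 kb and percentile 53.3. The longest with exactly 10 regions, at Gapvd1, Hspa5, Rabepk and Fbxw2, spans 63.9 kb, and the longest with exactly 9, at Col4a2, Rab20 and Naxd, spans 65.2 kb and is left out by the rule.

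**Figure D1:**
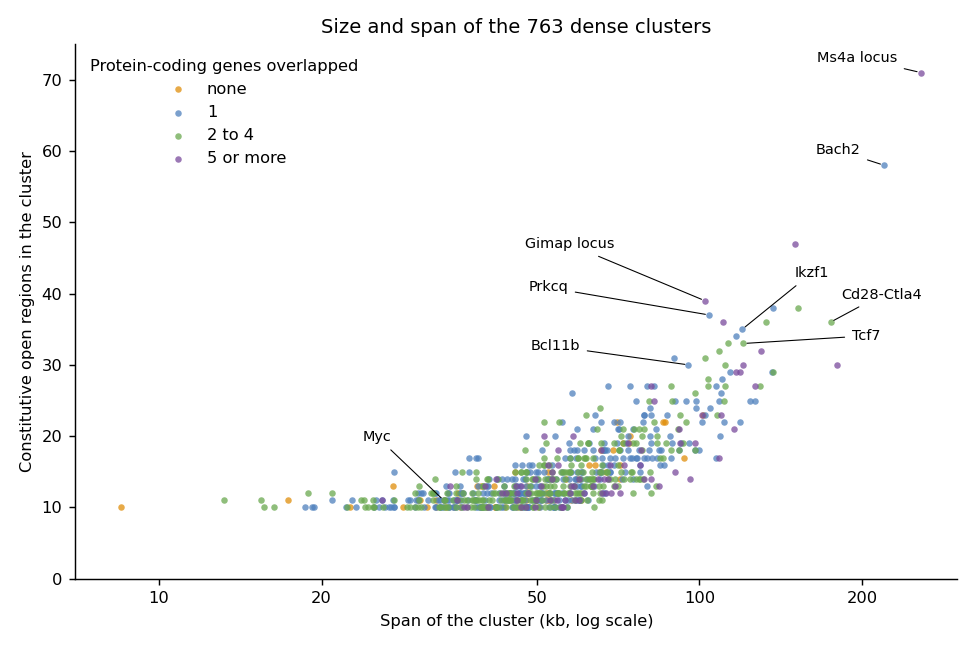
Each point is 1 of the 763 dense clusters, with its span in kb on a log scale on the x axis and its number of constitutive open regions on the y axis, coloured by the number of protein-coding genes it overlaps. Most clusters sit between 10 and 17 regions, and the Ms4a locus with 71 and Bach2 with 58 stand far above the rest.

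Of 16 T cell transcription factor genes listed, 11 were overlapped by a dense cluster, of 35 regions at Ikzf1 to 10 at Satb1, and Gata3, Myb, Tcf12, Tcf3 and Zeb1 were not. The second largest of all clusters, chr4:32205962-32425303, held 58 regions, 52 of them within Bach2, listed among the activation factors, which encodes a repressor known to restrain effector differentiation. Its mean height was 57.3, 57.6 and 58.0 with Res-shFabp7, against 56.5, 57.9 and 57.9 with Res-ctrl, and the groups overlapped. The tallest Bach2 region, chr4:32290865-32291996 within the gene, stood between 97.55 and 98.4 in the 6 libraries, and the lowest had a mean of 9.33. Ikzf1, which encodes the zinc finger factor Ikaros, had 29 of the 35 regions of its cluster (chr11:11646429-11766463) within the gene. Ikzf1's cluster had mean heights of 59.4, 58.4 and 56.85 with Res-shFabp7, against 60.5, 60.3 and 59.2 with Res-ctrl. Its tallest region, chr11:11725403-11726583, lay within the gene, stood between 98.1 and 99.2 in the 6 libraries and was taller than the region over the start, which stood between 80.55 and 84.2.

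Bcl11b, which encodes a factor of T lineage commitment, had 29 of 30 regions within the gene (chr12:107908932-108004318). Bcl11b's cluster had mean heights of 57.9, 57.1 and 56.0 with Res-shFabp7, against 57.7, 58.9 and 57.3 with Res-ctrl. Here the tallest region was at the gene start, with 94.3, 93.6 and 94.2 with Res-shFabp7, against 91.6, 92.2 and 94.3 with Res-ctrl. Tcf7 lay differently: only 10 of the 33 regions of its cluster (chr11:52254075-52374656) were within Tcf7, 19 were neither in a gene nor within 1 kb of a gene end, and the cluster ran on to Vdac1, which encodes a channel of the mitochondrial outer membrane. The tallest Tcf7 cluster region, chr11:52299629-52300169, lay in that stretch, outside genes, with 98.8, 98.8 and 98.5 with Res-shFabp7, against 97.9, 97.9 and 98.1 with Res-ctrl. The mean height of the Tcf7 cluster was 65.5, 65.3 and 63.1 with Res-shFabp7, against 67.8, 67.8 and 65.2 with Res-ctrl, and these values overlap. Lef1 had 21 of 25 regions within the gene, Runx3 had 11 of 20, and Ets1 was overlapped by 2 clusters, of 27 and 10 regions, with 25 and 10 of them within the gene. Foxp1, which encodes a factor of naive T cell quiescence, held all 34 regions of a cluster, and a smaller dense cluster lay further along the same gene.

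**Figure D2:**
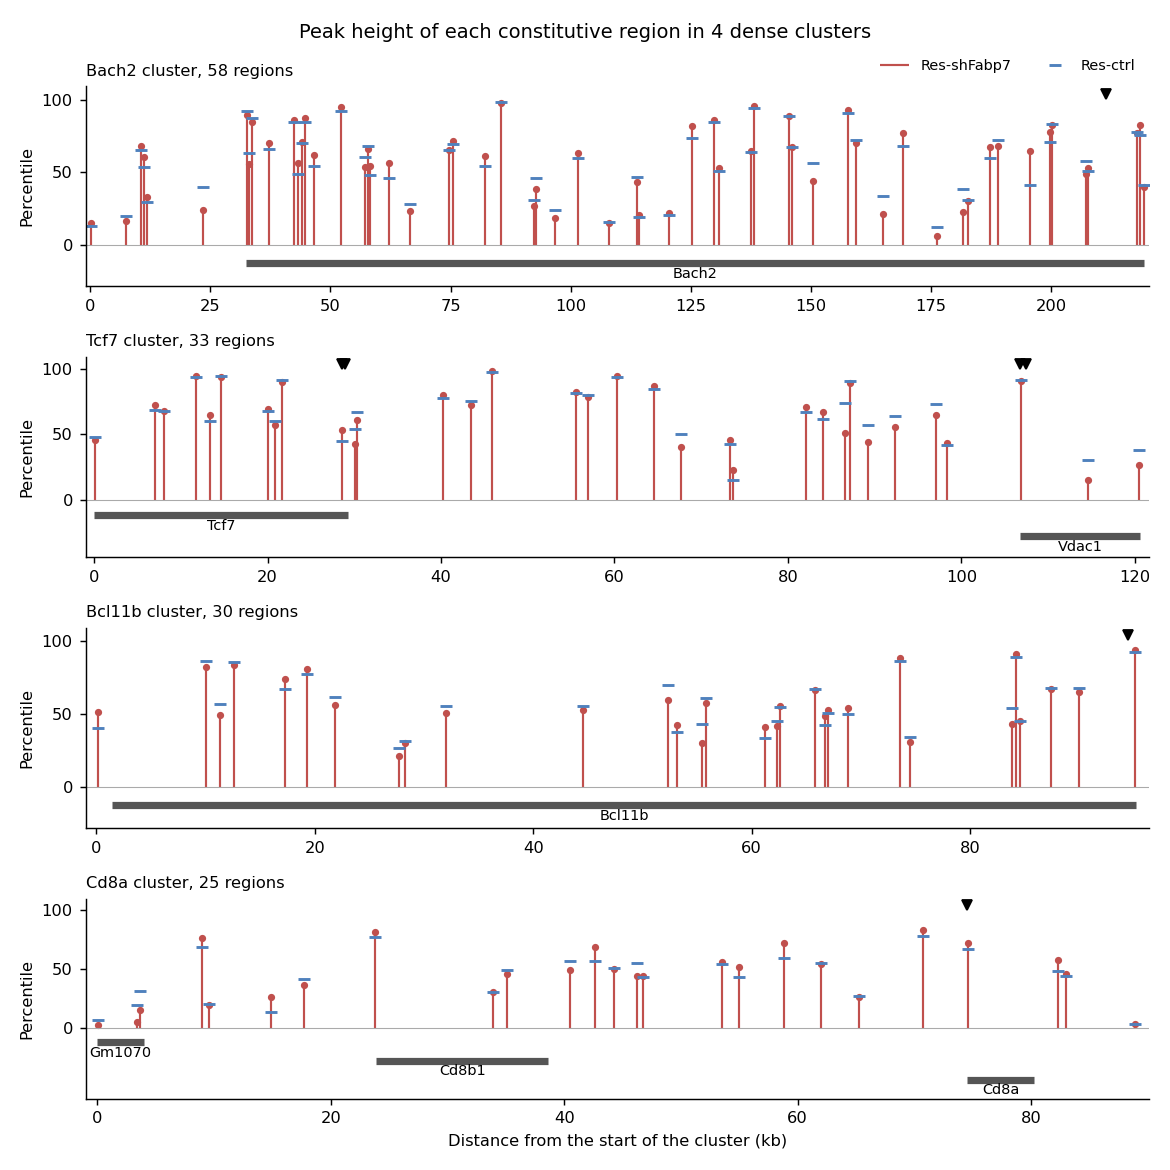
Each stem is 1 constitutive region of the dense clusters at Bach2, Tcf7, Bcl11b and Cd8a, placed by its distance in kb from the start of the cluster, and its height is the mean pileup percentile of the 3 Res-shFabp7 libraries, with a blue dash for the mean of the 3 Res-ctrl libraries. Grey bars are genes and triangles are gene starts in RefSeq's promoter table, which is incomplete. At Bach2 the only listed start, at 211.5 kb, lies within the gene, whose bar begins at 32.45 kb. Tall and low regions alternate along each cluster, and the 2 groups lie close to each other at most regions.

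Genes of the T cell receptor and its signalling chain had the highest share of the 23 lists: 21 of 23 genes lay at a dense cluster, and Malt1 and Themis did not. Prkcq, which encodes the kinase PKC-theta, had 29 of 37 regions within the gene, and its cluster had mean heights of 58.8, 60.3 and 58.9 with Res-shFabp7, against 58.45, 60.1 and 58.7 with Res-ctrl. Cd247, which encodes the CD3 zeta chain, had 25 regions in the gene, of 31 in the cluster. Cd3e, Cd3d and Cd3g, the other CD3 chains, shared 1 cluster of 16 regions. Cd5 and Cd6, neighbouring receptors that dampen signalling, shared 33 regions with Slc15a3. The Cd5 and Cd6 cluster stood at 53.4, 53.6 and 52.0 with Res-shFabp7, against 49.95, 51.2 and 49.6 with Res-ctrl, so that the groups did not overlap. Its difference in limma was 0.0716 normal scores (SE 0.022, adjusted p = 0.181), which did not pass the threshold of 0.05. The cluster of Cd8a and Cd8b1, with 25 regions over 89.1 kb, was lower than most: 43.9, 44.2 and 45.1 with Res-shFabp7, against 43.6, 42.5 and 45.2 with Res-ctrl. Of its regions 17 were neither in a gene nor within 1 kb of a gene end, and the tallest, chr6:71369415-71369813, lay outside genes and before the Cd8a start.

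Costimulatory and inhibitory receptors were often at dense clusters too. Of 10 costimulatory receptors 8 were overlapped, without Cd44 and Icos, and of 17 inhibitory receptors and brakes 9. Cd28 and Ctla4, the activating and the inhibitory receptor for the same ligands, shared a cluster of 36 regions over 174.8 kb. The Cd28 and Ctla4 cluster stood at 50.6, 49.65 and 50.5 with Res-shFabp7, against 47.4, 48.9 and 49.5 with Res-ctrl, and the groups did not overlap (difference 0.0614 normal scores, SE 0.0218, limma adjusted p = 0.229). Cblb, which encodes an E3 ligase that limits receptor signalling, held 23 regions, all within the gene, and the cluster of Cd4 held 15, shared with the inhibitory receptor gene Lag3. Pdcd1, which encodes PD-1, was not at a dense cluster, and its stitched cluster held 6 regions.

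Among cytokine receptors 8 of 16 were at a dense cluster. Il2ra, which encodes the high-affinity chain of the interleukin-2 receptor, had 22 regions over 55.7 kb (chr2:11616704-11672428), 11 of them within the gene. The Il2ra cluster stood at 63.5, 64.8 and 64.02 with Res-shFabp7, against 57.3, 60.45 and 60.9 with Res-ctrl. All 3 Res-shFabp7 libraries were above all 3 Res-ctrl libraries, by 0.146 normal scores (SE 0.035), and the adjusted p over all stitched clusters was 0.126 in limma. Tgfbr2, a chain of the TGF-beta receptor, had 20 of 25 regions within the gene. Of 17 cytotoxic and cytokine genes 5 were overlapped. Tnf and Lta, with Ltb and 7 other genes, shared a cluster of 36 regions whose mean height was 71.0, 71.6 and 71.5 with Res-shFabp7, against 71.2, 73.2 and 70.7 with Res-ctrl. Fasl, which encodes the ligand of the death receptor Fas, had 19 regions, of which 18 were neither in a gene nor within 1 kb of a gene end. Ifng and Gzmb were not at a dense cluster, and their largest stitched clusters held 3 regions and 1 region.

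Among factors of activation and effector fate, 9 of 26 and 10 of 17 genes were overlapped. Nr4a1, an immediate target of receptor signalling, lay in a cluster of 25 regions with Acvr1b, Grasp and Atg101, at 53.45, 53.6 and 54.0 with Res-shFabp7, against 56.3, 57.6 and 56.5 with Res-ctrl. The Nr4a1 cluster was lower in every Res-shFabp7 library than in any Res-ctrl library, by 0.111 normal scores (difference -0.111, SE 0.0226, limma adjusted p = 0.106). Tox, which encodes a factor of exhausted T cells, had 19 regions, all within the gene, at 43.0, 42.8 and 41.3 with Res-shFabp7, against 39.1, 40.9 and 40.0 with Res-ctrl (difference 0.0766, SE 0.0236, limma adjusted p = 0.182). Myc, which drives growth of activated T cells, lay in a cluster of 11 regions over 33.65 kb, with 52.2, 54.1 and 54.8 with Res-shFabp7, against 59.3, 56.4 and 54.0 with Res-ctrl. These percentiles overlap, while the mean normal scores of the Myc cluster, the measure behind the counts of clusters whose groups did not overlap, do not (difference -0.0943).

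The largest cluster of all and several others covered families of neighbouring genes. On chr19:11355527-11611951, 71 regions over 256.4 kb covered 8 genes, among them Ms4a4b, which encodes a membrane protein of T cells, and other Ms4a4 and Ms4a6 genes. The Ms4a cluster stood at 62.2, 63.3 and 62.2 with Res-shFabp7, against 60.7, 61.9 and 60.35 with Res-ctrl (difference 0.0672 normal scores, SE 0.0193, limma adjusted p = 0.167), and the groups did not overlap. On chr17:34068960-34219401, 47 regions covered genes of antigen processing, among them Tap1 and Tap2 of the peptide transporter, Psmb8 and Psmb9 of the immunoproteasome and the H2-DM genes. These 47 regions stood at 66.7, 66.2 and 65.3 with Res-shFabp7, against 67.3, 68.7 and 67.2 with Res-ctrl (difference -0.0467, SE 0.0181, limma adjusted p = 0.26). The Gimap genes, GTPases of lymphocyte survival, shared 39 regions over 102.3 kb on chromosome 6 at a mean height of 74.5. Copies of these families are alike in sequence, the sources used here do not say how reads with several matches were placed, and the heights in these families are uncertain for that reason.

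Over the whole genome 1612 of 21627 protein-coding genes (7.45%) were overlapped by a dense cluster, and 32 of them by more than 1. The shares of all T cell lists exceeded that value, from 91.3% of the receptor and signalling list and 80% of the costimulatory receptors to 29.4% of the cytotoxic and cytokine genes. Lists of general function were nearer to it: 15% of the glycolysis, respiratory chain and ribosomal protein lists, 16.7% of the circadian clock genes, 25% of the apoptosis genes, 9.52% of the ferroptosis and iron genes and 8.33% of the fatty acid genes, although chromatin modifiers reached 34.8%. Among markers of other cells, 0 of 15 B cell and 0 of 12 erythroid and megakaryocyte genes were overlapped. The other such lists had 1 gene each: Tyrobp of 11 NK cell markers, Elane of 17 myeloid markers and Muc1 of 15 epithelial tumour markers. Muc1 held 1 region of its cluster in the gene body, and Tyrobp and Elane held none. Some overlapped genes of the T cell lists also held none, Socs1, Nkg7, Tnfrsf18 and Irf8 among them, and Cd8a, Tnf and Fasl held 1 each. Of 12 CD4 and regulatory T cell markers, 5 were overlapped, Cxcr5, Cd4, Ccr4, Foxp3 and Ccr8, and whether other T cells added to these regions was not tested. Shares were not adjusted for gene length or for the density of genes, and the lists were not tested.

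**Figure D3:**
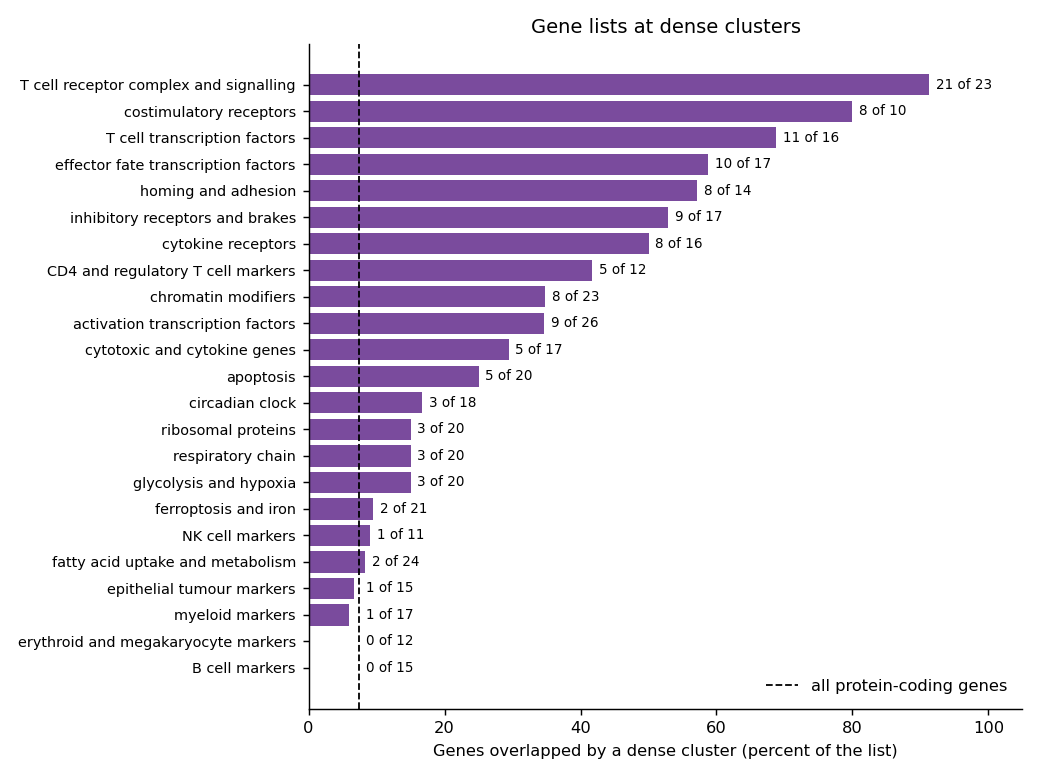
Bars give the percent of the genes of each of 23 lists that a dense cluster overlaps, with the count and the list size beside each bar, and the dashed line is the 7.45% of all protein-coding genes. The T cell receptor list reaches 91.3%, and the B cell and erythroid lists are at 0.

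How the regions of a cluster were spread depended on how many genes it covered. There were 59 clusters with no protein-coding gene, 329 with 1, 295 with 2 to 4 and 80 with 5 or more. The share of their regions within 1 kb of a gene end was 0.508%, 7.31%, 21.8% and 45.35% in that order, and the median of their mean heights was 52.9, 55.3, 58.9 and 64.2. In 64 clusters at least 50% of the regions lay near gene ends. Among the other clusters, at least 50% lay within gene bodies, parts near the ends included, in 485. In 185 at least 50% lay outside genes and away from their ends. The largest cluster with no protein-coding gene, chr7:63957188-64058544, held 23 regions and lay 18.3 kb from Klf13, and the next lay on chromosome 18 near Psd2 (22 regions) and on chr1:88575879-88661566 near Arl4c (22 regions). A stretch of 8.52 kb with no protein-coding gene, chr17:35993748-36002270, held 10 regions, 11.7 per 10 kb, at a mean height of 81.2. Abca7, with Tmem259 and Cnn2, followed with 8.32 per 10 kb, and Sh2d3c, with Cdk9, with 7.12. By chromosome, the share of constitutive regions that lay in dense clusters was highest on chromosome 11 (28.65%) and chromosome 19 (26.6%) and lowest on X (10.1%). Of 1005 miRNA hairpins in RefSeq's table, 72 lay in a dense cluster.

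Regions inside dense clusters were taller at the median than other constitutive regions, with a lower fold over their local background. The median percentile of pileup inside was 59.4, 59.7 and 59.5 in the Res-shFabp7 libraries and 59.3, 59.6 and 60.2 in the Res-ctrl libraries, and outside it was 46.8, 46.7 and 46.6 in the Res-shFabp7 libraries and 46.4, 47.2 and 46.8 in the Res-ctrl libraries. All 6 inside values lay above all 6 outside values. The difference averaged 12.9 percentiles (SD 0.35, n = 6 libraries), was positive in 6 of 6 and gave p = 0.03125 in a paired two-sided exact sign-flip permutation test, the smallest p that 6 pairs allow. For fold, which in the authors' lists divides summit coverage by background, the order was turned round: the median percentile averaged 37.4 inside and 53.1 outside, a difference of -15.7 (SD 2.84, lower inside in 6 of 6 libraries). The local background itself, recovered from pileup and fold, had a median of 5.95, 5.33 and 5.63 inside and 2.61, 2.29 and 2.47 outside in the Res-shFabp7 libraries. In the Res-ctrl libraries it was 4.12, 3.81 and 6.055 inside and 1.72, 1.54 and 2.55 outside. It was higher inside in 6 of 6 libraries, by 2.95 on average (SD 0.505). Coverage of neighbouring peaks can enter a local background, and the rule chose regions with close neighbours, so fold and background are given as a description, with no test. For the −log10 q of a peak, the percentiles averaged 50.7 inside and 49.8 outside, a difference of 0.878 (SD 0.88, higher in 5 of 6 libraries, exact p = 0.09375), which did not pass the threshold. These 4 measures are related, and a region was kept by peak calls that rest on them, so the test is not wholly independent of the choice of clusters. The regions inside and outside were also the same in every library, so the exact p describes repetition over libraries alone.

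**Figure D4:**
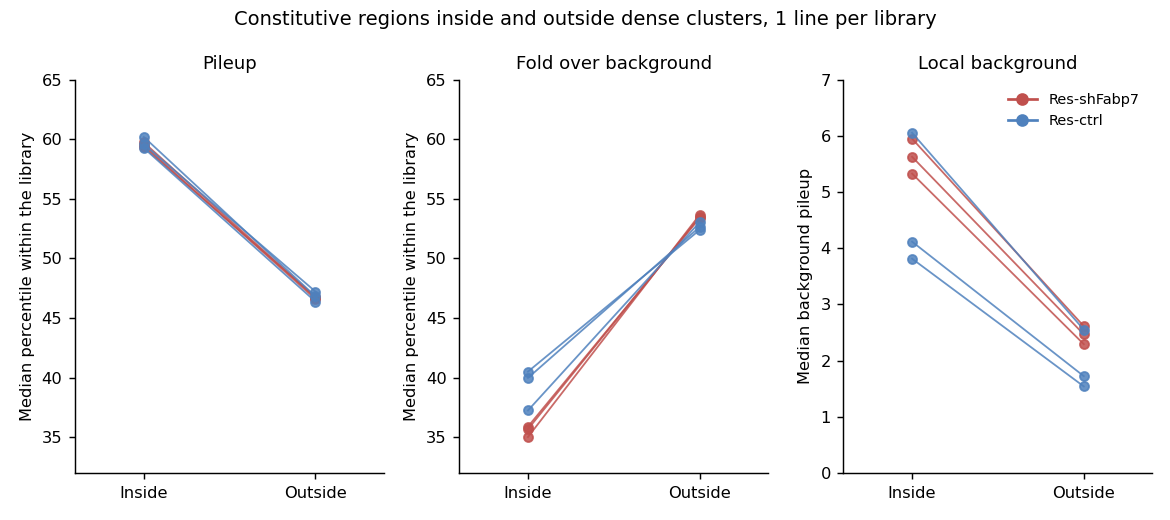
Each line is 1 library and joins the median over constitutive regions inside dense clusters with that over constitutive regions outside, for the percentile of pileup, the percentile of fold over background and the local background pileup. Pileup is higher inside in all 6 libraries, with means of 59.6 inside and 46.75 outside, while fold runs the other way.

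The difference in height lay with the regions away from genes' ends. There, the percentile averaged 56.9 inside and 38.3 outside, a difference of 18.6 (SD 0.87, 6 of 6 libraries, exact sign-flip permutation p = 0.03125). Within 1 kb of a gene end it averaged 74.8 inside and 76.2 outside, a difference of -1.38 (SD 0.351, lower inside in 6 of 6 libraries, exact sign-flip permutation p = 0.03125). Here too the sets of regions were the same in every library and rest on the same peak calls. Both p-values therefore describe repetition over libraries alone. Regions near gene ends were 16.9% of those inside and 26.2% of those outside, while 63.4% and 60.7% lay within genes. The median width was 315 bp inside and 363 bp outside. By size of the stitched cluster, the median percentile was 33.98 for regions that stood alone, 45.3 in clusters of 2 to 4 regions, 53.3 in those of 5 to 9, 58.0 in those of 10 to 14, 58.4 in those of 15 to 19 and 61.5 in those of 20 or more. The same classes had a median background of 1.04, 2.23, 3.56, 4.61, 4.96 and 6.32.

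Heights varied widely within most dense clusters. The SD of the height over the regions of a cluster had a median of 23.5 percentiles, against an SD of 28.2 over all constitutive regions and of 10.3 between the mean heights of the clusters. The lowest region of a cluster stood at percentile 13.98 at the median over clusters and the highest at 93.9, but the lowest region of a cluster reached percentile 68.3 at most and the highest was as low as 41.7 in 1. A region among the tallest 10% of all constitutive regions occurred in 546 clusters, and 217 had none. Such regions were 9.87% of those inside dense clusters and 10.03% of those outside, so they were no more frequent inside. The tallest region lay within 1 kb of a gene end in 290 of 763 clusters. Among clusters, mean height ran from 18.6 at Inpp4b, with 11 regions, to 83.4 in the cluster of Plekhg2, Zfp36, Med29 and Paf1. Over the 763 clusters, which share the 6 libraries, the Spearman correlation of mean height with the number of regions was 0.0804 and with regions per 10 kb 0.285, given as a description. Between libraries a cluster's mean height varied little, with an SD over the 6 libraries of 1.83 percentiles at the median and 7.55 at most.

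A smaller share of a library's peaks lay in dense clusters with Res-shFabp7, whose lists were all longer, than with Res-ctrl. The share was 15.3%, 14.9% and 15.5% with Res-shFabp7, against 17.5%, 18.0% and 16.45% with Res-ctrl. The share averaged 15.2% ± 0.321 in Res-shFabp7 libraries and 17.3% ± 0.791 in Res-ctrl libraries (SD, n = 3 each), and the groups did not overlap (difference -2.096 percentage points, two-sided exact permutation p = 0.1). That is the smallest p that 3 against 3 libraries allow, so no value of this kind can pass 0.05. The counts of peaks inside ran less apart, with 15971, 15746 and 15557 with Res-shFabp7, against 14869, 14779 and 15840 with Res-ctrl, and here the groups overlapped (exact permutation p = 0.3). The rule asked every library for a peak in each member region, so the share falls as a list grows longer. The test on all peaks therefore cannot tell the groups apart from the length of their lists. With every list limited to its 82153 strongest peaks, which left 626 dense clusters, the share was 14.36%, 14.3% and 14% with Res-shFabp7, against 14.8%, 14.95% and 14.7% with Res-ctrl (difference -0.603 percentage points, exact permutation p = 0.1).

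The height of single clusters was compared between the groups by the mean normal score of their regions, which are ranks within a library turned into standard normal values, with limma over all 21399 stitched clusters. None of the 763 dense clusters passed an adjusted p of 0.05, against 0.00467% of all stitched clusters for higher and 0% for lower. The lowest adjusted p of a dense cluster was 0.0725. At an unadjusted p under 0.05 there were 229 dense clusters (30.01%), 80 of them higher and 149 lower with Res-shFabp7, against 17.4% of all stitched clusters, 2068 higher and 1651 lower. Without the variance trend in limma the same count was 54 (7.08%), against 16.03% of all stitched clusters. Groups that did not overlap, with Res-shFabp7 higher, occurred in 89 dense clusters (11.7%), against 12.6% of all stitched clusters. With Res-shFabp7 lower they occurred in 171 dense clusters (22.4%), against 11.7% of all stitched clusters. In the next smaller class, stitched clusters of 5 to 9 regions, these shares were 10.5% higher and 17.4% lower. The differences were small: 737 of the 763 lay within 0.2 normal scores of 0, and the median was -0.0242, against -0.00315 over all stitched clusters. Over all regions inside dense clusters the mean normal score was 0.213, 0.219 and 0.206 with Res-shFabp7, against 0.2198, 0.242 and 0.232 with Res-ctrl (difference -0.0185, exact permutation p = 0.1), and the sign was reversed, with a value of 0.00342, when regions were stitched over 5 kb. Tested as single regions, 0 of the 11347 passed an adjusted p of 0.05 in limma, against 0.00177% of all constitutive regions. At an unadjusted p under 0.05 there were 1635 (14.4%), against 15.7% of all constitutive regions.

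Among dense clusters whose groups did not overlap, none passed the test, and the largest difference in each direction was at a cluster of 10 regions. Lower with Res-shFabp7 were a cluster of 10 regions within Wwox, which encodes an oxidoreductase known as a tumour suppressor, and a cluster of 12 regions at Scnn1a and at Tnfrsf1a, which encodes a receptor of TNF. Wwox stood at 39.0, 35.5 and 38.9 with Res-shFabp7, against 48.3, 49.2 and 47.9 with Res-ctrl (difference -0.399 normal scores, SE 0.0538, limma adjusted p = 0.0725). The Scnn1a and Tnfrsf1a cluster stood at 36.2, 35.1 and 35.55 with Res-shFabp7, against 43.5, 43.2 and 42.1 with Res-ctrl (difference -0.297, SE 0.028, limma adjusted p = 0.0725). Clusters at Ssbp3 (18 regions) and Rph3al (19 regions) and one with no protein-coding gene near Psd2 (22 regions) followed, with differences of -0.244, -0.235 and -0.23. Higher with Res-shFabp7 were clusters with no protein-coding gene on chromosomes 12, 5 and 16, with 0.392, 0.355 and 0.301, and clusters at Rgs1 and at Il10 and Mapkapk2. Rgs1, which encodes a regulator of G protein signalling in lymphocytes, stood at 62.5, 61.5 and 61.7 with Res-shFabp7, against 49.5, 51.85 and 54.7 with Res-ctrl (difference 0.275, SE 0.0456, limma adjusted p = 0.0919). Il10 encodes an immunoregulatory cytokine, and its cluster of 12 regions stood at 39.85, 36.1 and 39.3 with Res-shFabp7, against 28.8, 30.8 and 34.15 with Res-ctrl (difference 0.261, SE 0.0681, limma adjusted p = 0.145). In the 5 clusters that were higher, the third Res-ctrl library, which had the highest median pileup of its group, was closest to the Res-shFabp7 libraries. Among the 5 that were lower, that library was closest at Wwox, at Scnn1a and Tnfrsf1a and near Psd2, but not at Ssbp3 or Rph3al. The part of depth in these differences was not tested.

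**Figure D5:**
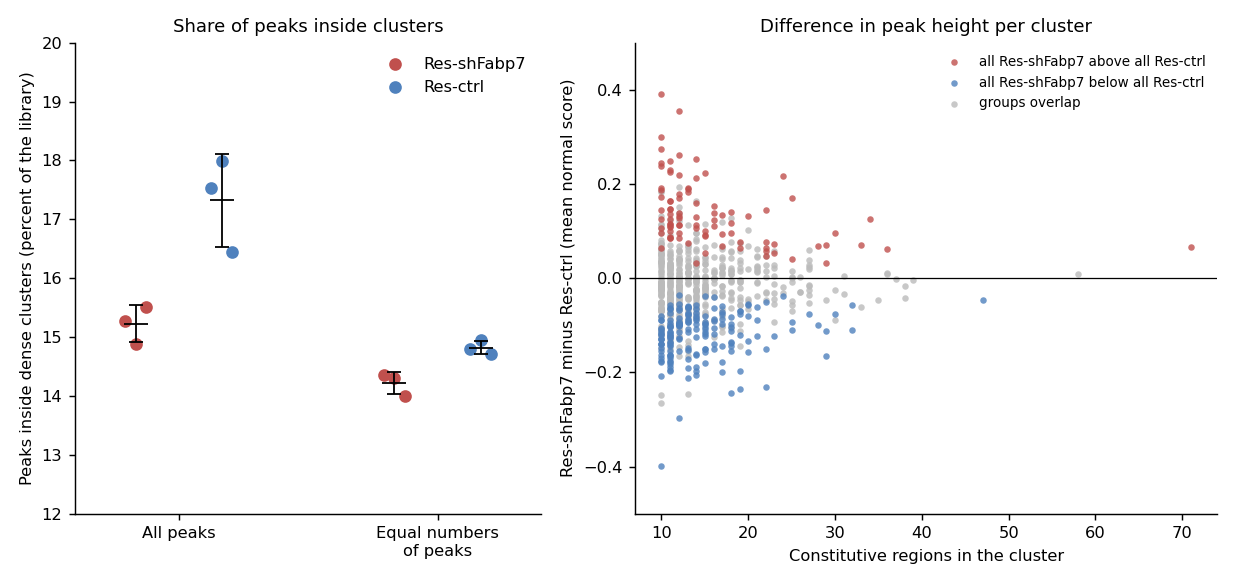
Left, the percent of each library's peaks that lies in dense clusters, with all peaks and with equal numbers of peaks per library, where points are libraries and bars are the mean and SD of 3. Right, the difference in mean normal score, Res-shFabp7 minus Res-ctrl, of each of the 763 dense clusters against its number of regions, where all values lie between -0.399 and 0.392 and both of these are at clusters of 10 regions.

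Regions called in 1 group alone were few within dense clusters. Their share lay below that of all merged regions for Res-shFabp7 and above it for Res-ctrl. Merged regions inside, constitutive or not, numbered 18250, of which 6903 were absent from at least 1 list. Those called in all 3 Res-shFabp7 libraries and in no Res-ctrl library numbered 180 (0.986%), against 2.28% of all merged regions, and those called in all 3 Res-ctrl libraries and no Res-shFabp7 library numbered 41 (0.225%), against 0.155% of all merged regions. Since the clusters were built from constitutive regions, the share among regions absent from at least 1 list was also taken: it was 2.61% inside and 4.08% outside for those called only with Res-shFabp7, and 0.594% inside and 0.236% outside for those called only with Res-ctrl. The 180 were spread over 152 clusters, with 4 at Ctif and 3 each at Lef1, Prkcq and Jak2, and the 41 over 38 clusters, with 2 at most in 1 cluster, Lef1 among them. Of all regions called only with Res-shFabp7, 5.87% lay inside dense clusters, and of those called only with Res-ctrl 19.7%, against 13.6% of all merged regions. With equal numbers of peaks the order of the counts inside was turned round, with 55 regions seen in the Res-shFabp7 group alone and 94 in the Res-ctrl group alone. These were 4.47% and 16.5% of all such regions, and merged regions inside numbered 13813. Over all merged regions the order was not turned round in that setting, with 1230 for Res-shFabp7 alone and 570 for Res-ctrl alone.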

How the data were processed

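Mouse CD8+ T cells cultured with Res-shFabp7 or Res-ctrl tumour cells gave 3 ATAC-seq libraries each. The submitters' processing notes name MACS2 2.2.7.1, Bowtie 1.1.2, cutadapt 2.8, Trim Galore 0.6.5 and the build mm10, and the sources used here do not give read shifting, the treatment of duplicates and of reads with several matches, or the MACS2 mode. Peak lists, 1 for each library, were deposited by the authors at a q of 0.05, with p-values and q-values as −log10. The deposited lists also give the pileup, a coverage signal at the summit, and the fold, a ratio to the local background. These values compare only within a list.

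Regions, stitching and gene overlap followed the rule in the opening, with 23 lists of 404 gene symbols, all matched to RefSeq's table, and 21044 gene starts from its incomplete promoter table. A region took its tallest peak in each library. The background of a peak was (pileup + 1)/fold - 1. Heights became percentiles and normal scores of ranks within each library. Clusters and regions were compared with limma 3.58.1 (moderated, two-sided, Benjamini-Hochberg, threshold 0.05), the clusters with a variance trend on the number of regions. The fit was tested on simulated shifts. Library values were compared by exact permutation over libraries. No gene list was tested.

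The named clusters are the 15 with the most regions, the 3 densest, those with up to 4 genes of each list with the most regions, 15 fixed genes, the 5 largest differences per direction without overlap, the longest with exactly 10 and 9 regions, and the 3 largest without a protein-coding gene. Clusters at other genes, named as counts or examples, were chosen after their values were seen. The members and lists were chosen with earlier results of these data known. Replicate numbers were not used to pair the libraries in the main comparisons. Alternatives were other peak thresholds, list lengths, stitching distances, minimum sizes, region rules and height measures, and leaving out each library. Tools were Python 3.11.15, pandas 2.3.3, numpy 2.4.6, scipy 1.17.1, matplotlib 3.10.9 and R 4.3.3.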

Additional observations from a re-analysis of the deposited data

How the results depend on the processing

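Number and size of the clusters depended on the rule. There were 763 dense clusters with 11347 regions and 1612 genes. Stitching over 5 kb gave 68 clusters, 835 regions and 102 genes, and over 20 kb 1268 clusters, 21626 regions and 3919 genes. A minimum of 8 regions gave 1225 clusters, and a minimum of 15 gave 281, with 5749 regions and 634 genes. Leaving out regions near gene ends gave 473, 6904 and 523, and asking peaks to cover 50% of a region gave 399, 5515 and 889. Leaving out 1 library and asking for the other 5 gave 787 to 885 clusters, 11797 to 13407 regions and 1648 to 1902 genes. Over 5 kb the cluster at Bach2 fell to 6 regions and that at Tcf7 to 5, while Il2ra kept 21. With equal numbers of peaks Myc had 9, under the minimum.

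Inside minus outside, the median percentile was -15.75 for the highest fold of a region and 0.878 for −log10 q, against 12.9 for pileup. Without 1 library it was 13.07 to 14.6, where 5 pairs allow no exact p under 0.0625. The mean normal score inside differed by -0.0185 between groups, and by 0.00342 with stitching over 5 kb (exact permutation p = 1.0). The cause was not tested. The difference in the share of peaks was negative in all 10 alternatives. All of them except equal numbers of peaks kept lists of unequal length, from which the share cannot be told apart. No dense cluster and no region inside passed in limma under any of the alternatives run, and at an unadjusted p under 0.05 there were 17 clusters (stitching over 5 kb) to 353 (over 20 kb), and 54 of 763 without the variance trend.

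Regions inside called only with Res-shFabp7 numbered 180, and 55 with equal numbers of peaks, 9 with 5 kb and 398 with 20 kb. Those called only with Res-ctrl numbered 41, and 94, 3 and 78 under these settings. Without 1 library they were 286 to 472 with Res-shFabp7 and 84 to 128 with Res-ctrl, since fewer libraries must then hold or lack a region. Equal numbers of peaks, 5 kb and 20 kb gave 626, 68 and 1268 dense clusters, so the counts cover unlike stretches of the genome. Their share of merged regions was not taken in these settings. Correlations of the deviations of same-numbered libraries were -0.0989, 0.0721 and 0.0302, and the main comparisons used no pairing by number. With 3 libraries per group such values cannot exclude a pairing. With the replicate block 0 dense clusters were called, with 214 at an unadjusted limma p under 0.05 (28.05%, against 16.36% of all stitched clusters). The difference of the mean normal score was then -0.0185 (exact permutation p = 0.25, the smallest that 3 pairs allow). Alternatives for single regions were added after seeing the data. Depth can limit the calls, and a peak missing from a shorter list does not show closed chromatin.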

Other observations

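Genes of T cell trafficking and survival also lay at dense clusters, with their regions placed in different ways. Of 14 homing and adhesion genes 8 were overlapped. Ccr7, the receptor that guides T cells to lymph nodes, lay in a cluster of 29 regions of which 24 were neither in a gene nor within 1 kb of a gene end, and S1pr1, the receptor for leaving them, in one of 27 with 20 such regions. The Ccr7 cluster stood at 70.2, 69.0 and 70.1 with Res-shFabp7, against 69.5, 68.8 and 69.7 with Res-ctrl, and that of S1pr1 at 54.5, 57.0 and 55.1 with Res-shFabp7, against 56.2, 59.9 and 56.0 with Res-ctrl, and these percentiles overlap at both, although the mean normal scores of Ccr7 do not (difference 0.0315). Itgal, the alpha chain of the integrin LFA-1, shared 30 regions over 179.6 kb with Spn and 8 other genes. That cluster was at 71.0, 70.5 and 71.8 with Res-shFabp7, against 67.2, 69.95 and 68.9 with Res-ctrl (difference 0.096 normal scores, SE 0.0244, limma adjusted p = 0.139), with no overlap of the groups.

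Of 20 apoptosis genes 5 were overlapped. Bcl2, an inhibitor of cell death, held 22 regions, all within the gene, while Mcl1, another inhibitor, lay in a cluster of 26 regions with 16 outside genes and their ends. The tallest region of that cluster, at 99.88 on average, lay in the neighbouring gene Ensa, 124 bp from the Ensa start. Bcl2l11, which encodes the death-promoting protein BIM, lay in a cluster of 15 regions, 13 of them within the neighbouring gene Acoxl. The Bcl2l11 cluster stood at 56.7, 54.7 and 55.7 with Res-shFabp7, against 52.8, 50.1 and 50.5 with Res-ctrl (difference 0.115 normal scores, SE 0.0497, limma adjusted p = 0.301).

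Some clusters without a protein-coding gene held noncoding genes, while others, such as the one near Arl4c, held none. The cluster of 11 regions on chromosome 8 with no protein-coding gene held the hairpins of Mir23a, Mir27a and Mir24-2, which are made from a shared transcript, and one on X with 22 regions held the long noncoding RNA gene Firre.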
